A study of Sus scrofa with 10 samples.

Results

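Gluconeogenesis and amino acid catabolism in the pig liver were followed through 9 genes, *SDS*, *PCK1*, *G6PC*, *FBP1*, *PC*, *TAT*, *TDO2*, *HPD* and *GOT1*. A gene was taken from the array where a probe set carried its symbol and no other symbol in the annotation of the platform, and its value was the mean of its probe sets with a mean log2 value of at least 4 over all arrays. In this way 7 of the 9 genes were measured, with 8 probe sets, out of 4730 genes of the whole array that passed the same limit. No probe set carried the symbol of *G6PC* or *TDO2* alone, so both genes were not analysed here. *TAT* had 2 probe sets and each of the other 6 genes had 1.

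Liver RNA of 10 females was assayed, 1 GeneChip Porcine array per animal, 5 animals of the high (H) group and 5 of the low (L) group for intramuscular fatty acid composition. All animals were backcross pigs from Iberian boars and Landrace sows, in which F1 males had been mated to Landrace sows, and they were raised and fed alike and slaughtered at about the same age. No animal was treated. The groups were the extremes of the first principal component of carcass and muscle fatty acid traits, with the H animals on the side of more polyunsaturated fatty acids in the *longissimus dorsi* muscle, and the L animals on the side of more saturated and monounsaturated ones. The groups were therefore formed on muscle and carcass traits, not on any liver measurement, and differ in whatever goes together with those traits. The RNA came from liver tissue with all its cell types, so that fewer cells of a type and less RNA per cell cannot be told apart.

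Gluconeogenesis makes glucose from lactate, glycerol and amino acids, and in the fasted animal it is carried out mainly by the liver. Pyruvate carboxylase and phosphoenolpyruvate carboxykinase turn pyruvate into phosphoenolpyruvate, fructose-1,6-bisphosphatase removes a phosphate further on, and glucose-6-phosphatase releases free glucose. Amino acids enter through aminotransferases, dehydratases and oxygenases that hand their carbon on as pyruvate, intermediates of the citric acid cycle or ketone bodies. Transcription of several of these enzymes, *PCK1* and *TAT* among the best studied in rodents, is raised by glucagon, acting through cyclic AMP, and by glucocorticoids, and *PCK1* is lowered by insulin.

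The deposited values were log2 intensities with a lowest value of 2.19, array medians between 3.78 and 3.85 and array maxima between 15.86 and 15.997. All 9 hepatocyte markers were measured, with a mean level of 14.78 to 14.96 in the H animals and 14.88 to 15.03 in the L animals. Of the markers of other cells, 6 of 10 were measured for Kupffer cells and macrophages (mean level 9.33 to 10.04 in H and 9.54 to 9.92 in L), 4 of 8 for endothelial cells (7.51 to 8.09 in H and 7.28 to 8.23 in L), 5 of 8 for stellate cells and fibroblasts (8.11 to 8.30 in H and 7.69 to 8.65 in L), 2 of 6 for cholangiocytes (6.78 to 7.54 in H and 6.81 to 7.48 in L), 2 of 6 for T and NK cells (4.90 to 5.14 in H and 4.71 to 5.83 in L), and 1 of 5 for erythroid cells (8.60 to 9.49 in H and 8.69 to 9.14 in L). The difference between the 3′ and the 5′ probe set of *GAPDH*, a sign of RNA degradation, was 1.96 ± 0.28 for the H animals and 1.99 ± 0.42 for the L animals (mean ± SD of 5), which an exact two-sided permutation test did not tell apart (p = 0.897).

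*SDS* encodes serine dehydratase, which turns serine into pyruvate and ammonia, and it varied more between animals than any other of the 7 genes. Its log2 values in the H animals, from H1 to H5 as in all lists of values that follow, were 9.49, 8.83, 8.58, 8.77 and 3.58. In the L animals, from L1 to L5, they were 6.45, 9.39, 7.55, 3.75 and 4.92. A total of 4 H animals lay close together at the top with 1 L animal, while H5 was the lowest of all 10 animals, just below L4. H5 and L4 were below the array medians, near the dark end of the scale, where GCRMA values change little with the signal. The highest animal (H1) and the lowest (H5) lay 5.90 apart on the log2 scale, a distance that the lower end of the scale limits. The SD over the 10 animals was 2.31, which placed *SDS* at rank 6 of 4730 genes, and leaving out 1 animal at a time gave an SD between 2.06 and 2.44.

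*PC* encodes pyruvate carboxylase, the mitochondrial enzyme that makes oxaloacetate from pyruvate. Its values were 11.67, 11.92, 11.69, 12.18 and 11.76 in the H animals and 12.18, 11.74, 11.84, 12.39 and 11.97 in the L animals. The highest value was that of L4 and the lowest that of H1, and the SD of 0.24 was close to the median SD of all genes, 0.22.

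*PCK1* encodes the cytosolic phosphoenolpyruvate carboxykinase, a classical control point of gluconeogenesis. Its values were 13.42, 14.01, 13.82, 12.40 and 13.25 in the H animals and 13.65, 13.13, 13.05, 13.28 and 13.60 in the L animals. The L animals kept within a narrow band, inside the range of the H animals, which held both the highest animal (H2) and the lowest (H4). The range was 3.06-fold, and the SD of 0.46 fell to 0.32 without H4. H4, the animal with the least *PCK1* signal, was among the high animals for *SDS*.

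*FBP1* encodes fructose-1,6-bisphosphatase and was the steadiest of the 7 genes. Its values were 14.43, 14.62, 14.39, 14.61 and 14.27 in the H animals and 14.19, 14.44, 14.51, 14.57 and 14.17 in the L animals. The whole range was 1.36-fold, with an SD of 0.17. The probe set lies near the bright end of the scale, and whether its signal was saturated was not tested.

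*TAT* encodes tyrosine aminotransferase, which starts the breakdown of tyrosine in the liver. Its values were 13.45, 13.25, 13.29, 11.78 and 11.99 in the H animals and 12.59, 13.03, 11.93, 11.53 and 12.32 in the L animals. H1, H2 and H3 were the highest animals, whereas H4 and H5 were among the 4 lowest, so that the H animals spread over most of the range. Its range was 3.79-fold and its SD 0.70. The 2 probe sets of *TAT*, whose mean values lie 1.65 apart, gave the same picture (Pearson's r = 0.923, p = 0.00018, Spearman's rho = 0.891, p = 0.00116, permutation tests, n = 10).

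*HPD* encodes 4-hydroxyphenylpyruvate dioxygenase, which acts on the product of tyrosine aminotransferase. Its values were 8.58, 8.59, 7.99, 7.71 and 7.50 in the H animals and 8.37, 8.19, 7.24, 7.63 and 7.75 in the L animals. H1 and H2 were again at the top, and L3 was at the bottom, with an SD of 0.46 and a 2.54-fold range.

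*GOT1* encodes the cytosolic aspartate aminotransferase, which moves amino groups between aspartate and glutamate and takes part in the exchange of reducing equivalents with the mitochondrion. Its values were 11.36, 11.08, 11.63, 10.48 and 10.61 in the H animals and 11.09, 11.12, 10.55, 10.75 and 11.51 in the L animals. H3 and L5 were the highest and H4 the lowest, with an SD of 0.41 and a 2.22-fold range.

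**Figure D1:**
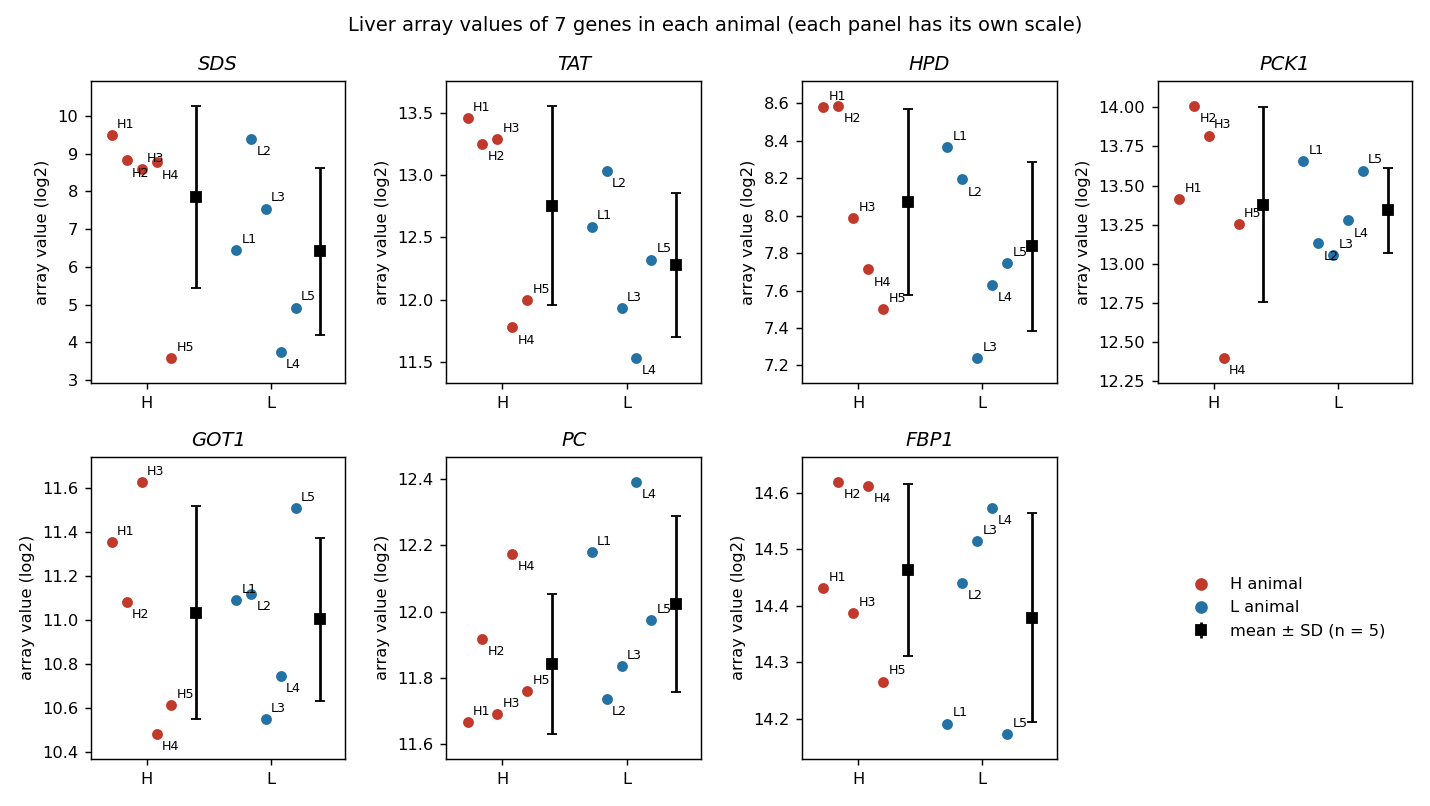
Log2 array value of each of the 7 measured genes in each animal (vertical axis, own scale per panel), for the 5 H and the 5 L animals, with the mean ± SD of each group as a black square and bar. The H and L points overlap in all 7 panels, and H5, L4 and L5 are the lowest animals for *SDS*.

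Set against all genes, 2 of the 7 genes, *SDS* (percentile 99.9) and *TAT* (percentile 96.4), were in the top 5.01% by SD over the 10 animals. *HPD* (percentile 89.7), *PCK1* (89.1) and *GOT1* (85.6) followed, *PC* (57.1) was near the middle and *FBP1* (28.8) in the lower part. The median SD of the 7 genes was 0.46, against 0.22 for all 4730 genes.

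**Figure D2:**
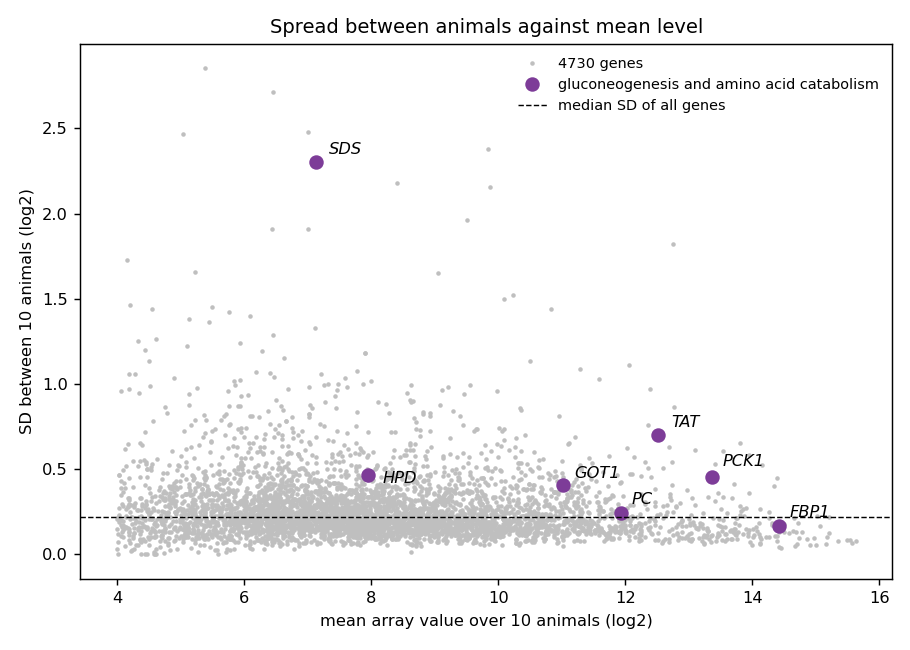
SD of the log2 value over the 10 animals (vertical axis) against the mean log2 value (horizontal axis) for 4730 genes in grey and the 7 measured genes in purple, with the median SD of all genes as a dashed line. *SDS*, at an SD of 2.31, stands far above the bulk of the genes, *TAT* is high for its level, and *FBP1* lies below the line.

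The comparison of H with L asked whether liver expression of these genes differed between the extremes of muscle fatty acid composition. None of the 7 genes passed the adjusted threshold of 0.05 in limma's moderated test (Benjamini-Hochberg over 4730 genes), and none had an unadjusted p under 0.05. Of all genes 0% passed the adjusted threshold and 2.64% the unadjusted one, which is 125 genes. The H and L animals overlapped for all 7 genes. Groups without overlap were found for 17 genes in the whole array, or 0.359%. The difference was above 0 for 6 of the 7 genes and below 0 for *PC*, with a median of 0.08. Over all genes 37.2% of the differences were above 0 and 62.8% below, with a median of −0.04.

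*SDS* averaged 7.85 ± 2.41 in H and 6.41 ± 2.21 in L, where ± is the SD over 5 animals, as for all means that follow. The H minus L difference was 1.44 ± 1.29 (limma's standard error, 95% interval −1.43 to 4.30, adjusted p = 0.985), and the exact permutation test of the group means over 252 splits gave p = 0.341. This interval spans both a lower and a much higher level in H, so that the arrays leave the size of any difference in *SDS* undetermined. The difference was 2.50 without H5, 2.18 without L2 and 0.77 without L4, with no adjusted p under 0.05 in limma's test in any of these cases. *TAT* averaged 12.75 ± 0.80 in H and 12.28 ± 0.58 in L, a difference of 0.47 ± 0.39 (95% interval −0.40 to 1.34, limma's adjusted p = 0.985, exact permutation p = 0.310). The 2 *TAT* probe sets gave differences of 0.45 and 0.50, and the difference of the gene was 0.29 without L4, 0.30 without H1 and 0.72 without H4. *HPD* averaged 8.07 ± 0.50 in H and 7.84 ± 0.45 in L, a difference of 0.24 ± 0.27 (95% interval −0.36 to 0.84, exact permutation p = 0.444). It was 0.09 without L3, 0.11 without H1 or H2, 0.37 without L1 and 0.38 without H5.

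*PC* was the one gene with a lower mean in H, 11.84 ± 0.21 in H and 12.02 ± 0.26 in L, but its difference of −0.18 ± 0.14 was within the error (95% interval −0.50 to 0.14, exact permutation p = 0.262). It was −0.09 without L4 and −0.27 without H4. *FBP1* averaged 14.46 ± 0.15 in H and 14.38 ± 0.18 in L, with the narrowest interval of the 7 genes (−0.16 to 0.33), and its difference of 0.08 was 0.03 without L5, 0.04 without L1, 0.05 without H2 or H4, and 0.13 without H5 or L4. *PCK1* averaged 13.38 ± 0.63 in H and 13.34 ± 0.27 in L, and *GOT1* averaged 11.03 ± 0.49 in H and 11.004 ± 0.37 in L. Their differences of 0.04 ± 0.28 (95% interval −0.57 to 0.65) and 0.03 ± 0.25 (95% interval −0.52 to 0.58) had no stable sign. Leaving out 1 animal at a time gave −0.12 (without H2) to 0.28 (without H4) for *PCK1*, and −0.12 (without H3) to 0.17 (without H4) for *GOT1*. Limma's adjusted p was 0.985 for *PC*, *FBP1* and *HPD* and 0.997 for *PCK1* and *GOT1*.

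**Figure D3:**
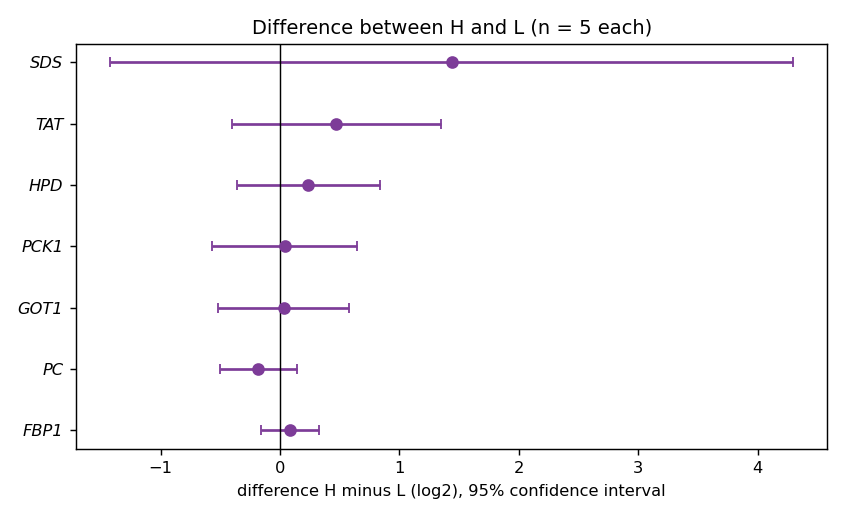
Difference H minus L on the log2 scale (horizontal axis) of the 7 measured genes, with limma's 95% confidence interval as a bar (n = 5 animals each). All 7 intervals cross 0, from the widest, *SDS* (−1.43 to 4.30), to the narrowest, *FBP1* (−0.16 to 0.33).

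The genes were next compared with each other across the 10 animals, over 21 pairs, with permutation tests of Pearson's r and Spearman's rho. After Benjamini-Hochberg adjustment no pair passed 0.05 by either measure. A total of 5 pairs had an unadjusted p under 0.05 for r and 6 for rho, and the lowest adjusted p was 0.121. The median size of r was 0.437 over the 21 pairs, against 0.274 over all pairs of genes on the array, and 6 pairs (28.6%) had an r of at least 0.6 in size, against 10.4% of all gene pairs. All genes were measured in the same 10 animals, so these shares are given as a description.

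*TAT* took part in 5 of these 6 pairs. The closest was that with *HPD*, the next enzyme of tyrosine breakdown (r = 0.823, permutation p = 0.00575, adjusted p = 0.121, with rho = 0.794, p = 0.0088, adjusted p = 0.152; n = 10). H1 and H2 were high for both genes, and H4, H5, L3 and L4 were low for both. With each group centred on its own mean r was 0.808, and leaving out H1 and L4, whose *TAT* values were the most extreme, it was 0.784. *TAT* went with *GOT1* in the same way (r = 0.755, permutation p = 0.0168, adjusted p = 0.13, with rho = 0.745, p = 0.0175, adjusted p = 0.152), with r = 0.739 without H1 and L4. *HPD* was also the one gene with an unadjusted p under 0.05 against the *GAPDH* 3′ to 5′ difference (r = 0.639, permutation p = 0.0431, adjusted p = 0.302, with rho = 0.527, p = 0.124, adjusted p = 0.543; r = 0.437 without H2 and L1), and the part of RNA quality in the *HPD* pairs was not tested. For *TAT* that r was 0.263.

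*SDS* and *TAT* had r = 0.675 (permutation p = 0.0379, adjusted p = 0.166, with rho = 0.636, p = 0.0548, adjusted p = 0.16). This relation was weaker without H5 and L4, the animals with the least *SDS* signal (r = 0.466, exact permutation p = 0.247). H4 stood against it, with a high *SDS* value and the second lowest *TAT* value. *PC* ran against *TAT* (r = −0.661, permutation p = 0.0396, adjusted p = 0.166, with rho = −0.721, p = 0.0229, adjusted p = 0.152). The r was −0.591 without H1, −0.515 without L4 and −0.397 without both.

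*PCK1* went with *GOT1* (r = 0.706, permutation p = 0.0185, adjusted p = 0.13, with rho = 0.661, p = 0.043, adjusted p = 0.152), and r was 0.78 without H2 and H4. Its r with *TAT* was 0.612 (permutation p = 0.0544, adjusted p = 0.191, with rho = 0.624, p = 0.0609, adjusted p = 0.16). With *SDS* there was no relation that 10 animals could show (r = −0.0418, permutation p = 0.911, adjusted p = 0.956, with rho = 0.0303, p = 0.947, adjusted p = 0.947). *FBP1* had no r above 0.44 in size with any of the other 6 genes over the 10 animals. Its r with *SDS* was 0.421, and 0.746 without H5 and L4 (exact permutation p = 0.0347, not adjusted).

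**Figure D4:**
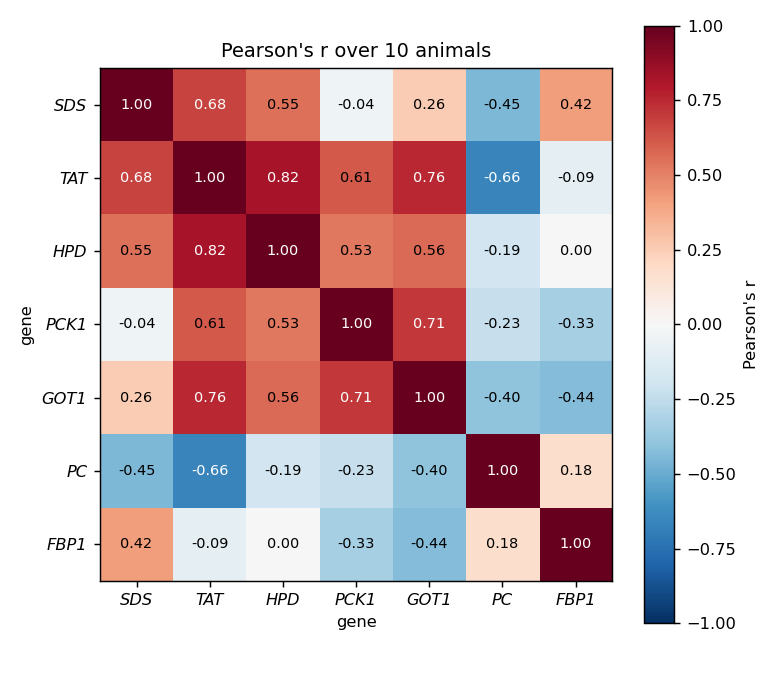
Pearson's r over the 10 animals for each pair of the 7 measured genes, from blue (−1) to red (1), with r written in each cell. *TAT*, *HPD*, *PCK1* and *GOT1* form a block of positive values from 0.53 to 0.82, in which *SDS* joins with *TAT* (0.68) and *HPD* (0.55) but not with *PCK1* (−0.04).

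The upstream signals were looked at through 12 measured regulators of gluconeogenesis (of 28 listed) and 15 measured targets of glucocorticoid, glucagon and fasting signals (of 22 listed). For *SDS*, none of the 27 relations passed the adjusted threshold by r (lowest adjusted p = 0.352) and 1 passed by rho. This was *ARG1*, the arginase of the urea cycle (rho = 0.879, permutation p = 0.00167, adjusted p = 0.0451; r = 0.757, p = 0.013, adjusted p = 0.352). The r was 0.686 without H5 and L4. *ARG1* had an SD of 0.27 (percentile 63.8 of all genes), with 14.25, 13.81, 14.24, 13.72 and 13.61 in the H animals and 13.64, 14.18, 13.78, 13.58 and 13.68 in the L animals. H1, H3 and L2 were high for both genes. *CPS1*, the mitochondrial carbamoyl phosphate synthetase of the urea cycle, had r = 0.70 with *SDS* (permutation p = 0.0296, adjusted p = 0.352, with rho = 0.709, p = 0.0259, adjusted p = 0.35) and r = 0.494 without H5 and L4. With *KLF15*, a glucocorticoid-induced factor that promotes amino acid catabolism in mice, *SDS* had r = 0.28 (permutation p = 0.432, adjusted p = 0.725, with rho = 0.394, p = 0.264, adjusted p = 0.636).

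The same 27 genes were then set against all 7 genes, a family of 189 relations that was added after the data were seen. No relation passed the adjusted threshold by r or rho, although 42 had an unadjusted p under 0.05 for r, and the lowest adjusted p was 0.0508. An r of at least 0.6 in size was found for 46 relations (24.3%), against 10.4% of all gene pairs. The relation with the highest r was that of *PCK1* with *KLF15* (r = 0.915, permutation p = 0.00037, adjusted p = 0.0508, with rho = 0.855, p = 0.00293, adjusted p = 0.0756), with r = 0.747 without H2 and H4. *KLF15* read 10.73, 11.23, 10.69, 9.08 and 9.80 in the H animals and 10.79, 10.32, 9.78, 9.91 and 10.31 in the L animals. H2 was the highest and H4 the lowest animal for both genes. *PCK1* also went with *IGFBP1*, a secreted binding protein of insulin-like growth factors that insulin represses (r = 0.866, permutation p = 0.00188, adjusted p = 0.0508, with rho = 0.855, p = 0.00292, adjusted p = 0.0756). The values of *IGFBP1* were 11.28, 11.63, 13.16, 7.96 and 10.92 in the H animals and 10.92, 9.17, 10.68, 10.55 and 11.97 in the L animals. H4 lay lowest here too, and the SD of *IGFBP1*, 1.44, was at percentile 99.6 of all genes. *CEBPB*, a transcription factor of the acute-phase and fasting responses, had r = 0.847 with *PCK1* (permutation p = 0.00122, adjusted p = 0.0508, with rho = 0.879, p = 0.00168, adjusted p = 0.0756).

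*TAT* had its highest r in this family with *CPS1* (r = 0.896, permutation p = 0.00132, adjusted p = 0.0508, with rho = 0.83, p = 0.00453, adjusted p = 0.0756), and r was 0.904 without H1 and L4. *CPS1* read 14.45, 14.56, 14.61, 14.24 and 14.11 in the H animals and 14.39, 14.36, 14.13, 14.12 and 14.19 in the L animals. H1, H2 and H3 were the highest for both genes. *TAT* had r = 0.819 with *CREM*, a gene of the cyclic AMP response (permutation p = 0.00165, adjusted p = 0.0508, with rho = 0.83, p = 0.00454, adjusted p = 0.0756), and r = 0.818 with *KLF15* (permutation p = 0.00433, adjusted p = 0.0818, with rho = 0.794, p = 0.00882, adjusted p = 0.0833). *PC* ran against *CREM* (r = −0.841, permutation p = 0.00224, adjusted p = 0.0529, with rho = −0.77, p = 0.0119, adjusted p = 0.103). *FBP1* went with *FKBP5*, a glucocorticoid-induced chaperone partner (r = 0.829, permutation p = 0.00058, adjusted p = 0.0508, with rho = 0.855, p = 0.00277, adjusted p = 0.0756), and r was 0.886 without L1 and L5. Some targets of the same list ran the other way. *FBP1* had r = −0.739 with *ASNS* (permutation p = 0.00181, adjusted p = 0.0508, with rho = −0.828, p = 0.00473, adjusted p = 0.0756). *ASNS* had a mean of 4.26, near the dark end of the scale, and an SD of 0.15. *TAT* had r = −0.743 with *CPT1A* (permutation p = 0.0132, adjusted p = 0.125, with rho = −0.733, p = 0.0204, adjusted p = 0.129). *GOT1* had r = −0.639 with *FKBP5* (permutation p = 0.0389, adjusted p = 0.198, with rho = −0.636, p = 0.054, adjusted p = 0.232). Of the 189 relations 121 had a positive r and 68 a negative one. The 4 genes *TAT*, *PCK1*, *HPD* and *GOT1* held most of the low p-values, with 9, 8, 7 and 8 of their 27 relations at an unadjusted permutation p under 0.05, against 3 of 27 for *SDS*. Those of *HPD* include *PRKACA* (r = −0.553, permutation p = 0.0111, with rho = −0.559, p = 0.0975). *PRKACA* was nearly flat over the animals, with an SD of 0.05 at percentile 0.78 of all genes.

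**Figure D5:**
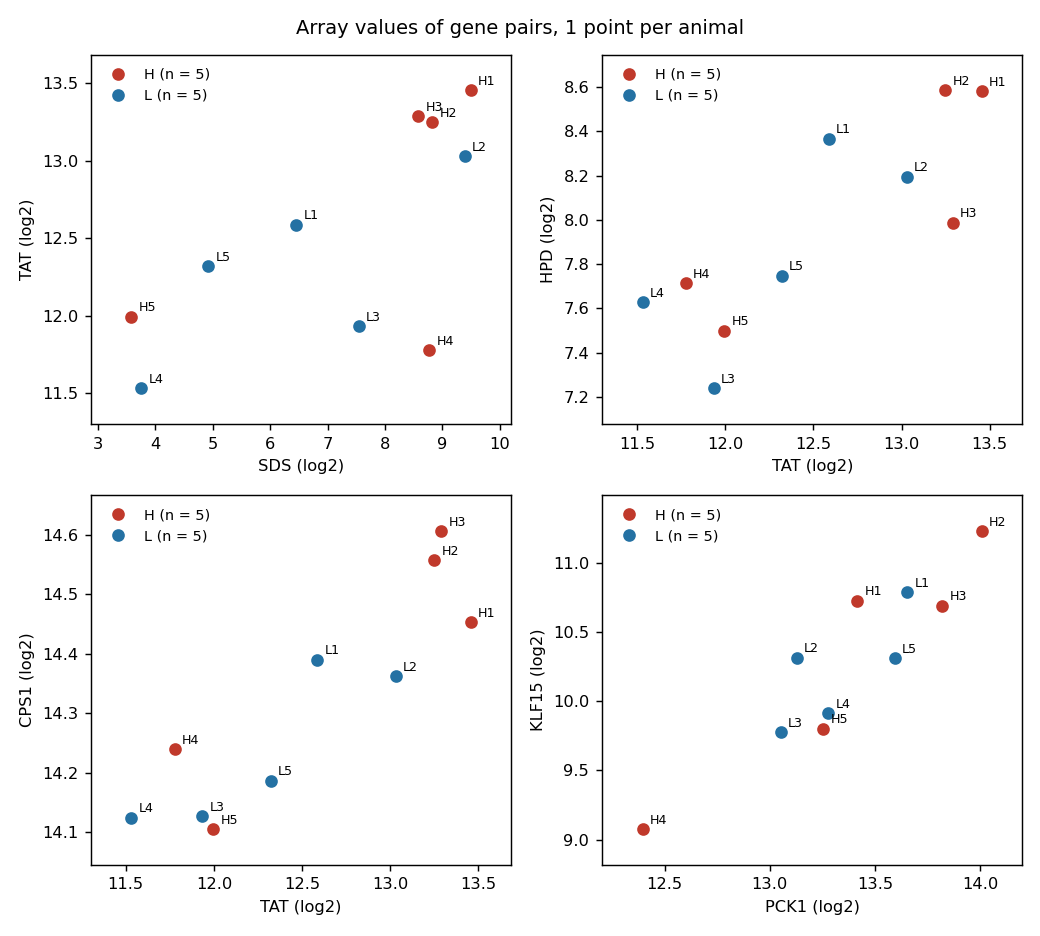
Log2 array values of 4 pairs of genes (one gene per axis), 1 point per animal, H in red and L in blue. *TAT* and *HPD*, *TAT* and *CPS1*, and *PCK1* and *KLF15* rise together in both groups, with H4 at the low end of the last pair, while for *SDS* and *TAT* H4 departs from the other animals.

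Among all genes, those with a pattern over the 10 animals most like that of *TAT* were *CPS1* (r = 0.896), *OCLN*, a tight junction protein (0.878), *GNMT*, the glycine N-methyltransferase (0.877), *SLC38A1*, an amino acid transporter (0.861), and *KYAT1*, which transaminates kynurenine (0.845). The most opposite were *PSMC2*, a proteasome subunit (−0.932), *TFG* (−0.931) and *DCTN5*, a dynactin subunit (−0.897). *GNMT* followed *TAT* closely, with 11.75, 11.55, 11.92, 11.05 and 11.27 in the H animals and 11.46, 11.70, 10.64, 11.01 and 11.29 in the L animals. For *SDS* the most alike were *LNPK* (0.804), *TADA3* (0.791), *ARNTL*, the core clock factor BMAL1 (0.780), *CDS1* (0.774) and *PPM1D* (0.771). Without H5 and L4 the r of *ARNTL* was 0.591 and that of *CDS1* 0.203. The most opposite to *SDS* were *NTAN1* (−0.862), *TIMM44* (−0.862) and *TMSB10*, a small actin-binding protein (−0.861). *TMSB10* was highest in H5, with 9.05, 9.26, 9.45, 9.19 and 9.96 in the H animals and 9.38, 9.32, 9.36, 9.55 and 9.70 in the L animals. Genes with r of at least 0.8 numbered 62 for *PC*, 46 for *PCK1*, 20 for *HPD*, 20 for *FBP1*, 18 for *GOT1*, 17 for *TAT* and 1 for *SDS*. Those with r of −0.8 or lower numbered 63 for *HPD*, 33 for *TAT*, 31 for *GOT1*, 15 for *PCK1*, 14 for *PC*, 11 for *FBP1* and 10 for *SDS*. These values were selected as extremes among 4730 genes and are a description.

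The other genes of the pathways were compared between H and L in 6 lists, 90 measured genes in all. None passed limma's adjusted threshold and 1 had an unadjusted p under 0.05, with 54 differences above 0 and 36 below. Over all 4730 genes 2.64% had an unadjusted p under 0.05, and 37.2% of the differences were above 0. In the list of gluconeogenesis and the pyruvate cycle 5 of 22 measured genes (31 listed) were above 0 and 17 below, with a median difference of −0.08. *GK*, the glycerol kinase that lets glycerol enter the pathway, averaged 8.79 ± 0.37 in H and 8.45 ± 0.15 in L (difference 0.34 ± 0.17, limma's adjusted p = 0.985). *GPT*, the alanine aminotransferase, had an SD of 0.76 over the 10 animals and averaged 5.66 ± 0.92 in H and 5.88 ± 0.67 in L. *TKFC*, a kinase of triose sugars, averaged 6.69 ± 0.38 in H and 6.66 ± 0.80 in L.

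For serine, glycine and threonine catabolism 7 of 11 measured genes (21 listed) were above 0 and 4 below, with a median of 0.07. *GCAT*, of the threonine route to glycine, averaged 8.06 ± 0.35 in H and 8.44 ± 0.48 in L (difference −0.38 ± 0.24), and *GRHPR*, the glyoxylate and hydroxypyruvate reductase, averaged 10.54 ± 0.18 in H and 10.23 ± 0.49 in L (difference 0.32 ± 0.21). *PHGDH*, which starts serine synthesis, averaged 7.18 ± 0.98 in H and 7.34 ± 0.56 in L. For phenylalanine, tyrosine and tryptophan catabolism 6 of 9 measured genes (21 listed) were above 0 and 3 below, with a median of 0.04. *KYAT1* averaged 8.84 ± 0.50 in H and 8.25 ± 0.55 in L, a difference of 0.59 ± 0.30 (limma's adjusted p = 0.985). *QDPR*, which regenerates the cofactor of phenylalanine hydroxylase, averaged 12.53 ± 0.30 in H and 12.29 ± 0.58 in L, and *KYNU*, the kynureninase, averaged 7.37 ± 0.78 in H and 7.35 ± 0.21 in L.

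Of the other genes of amino acid catabolism 21 of 23 measured (42 listed) were above 0 and 2 below, against 37.2% above 0 over all genes. The median was 0.15, the highest of the 6 lists. Over all genes the median difference was −0.04, but −0.025 with quantile normalization and −0.005 without the filter on dim probe sets. The share of signs over all genes therefore depends on the processing. Genes measured in the same animals do not give separate observations, and the count of signs is a description. *MUT*, the methylmalonyl-CoA mutase, averaged 11.83 ± 0.44 in H and 11.46 ± 0.49 in L (difference 0.37 ± 0.27). *CTH*, the cystathionine gamma-lyase, averaged 14.11 ± 0.29 in H and 13.77 ± 0.37 in L (difference 0.33 ± 0.19), and *IVD*, the isovaleryl-CoA dehydrogenase of leucine breakdown, averaged 7.58 ± 0.80 in H and 7.35 ± 0.71 in L. The 1 gene with an unadjusted p under 0.05 was *ACAD8*, the isobutyryl-CoA dehydrogenase of valine breakdown, with 8.93 ± 0.17 in H and 8.65 ± 0.21 in L (difference 0.28 ± 0.12, limma's adjusted p = 0.985), which was named after its values were seen.

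Among the regulators 8 of 12 were above 0 and 4 below, with a median of 0.04. *FOXO1*, a factor that insulin keeps out of the nucleus, averaged 7.92 ± 0.30 in H and 7.67 ± 0.24 in L (difference 0.25 ± 0.16), and *CEBPB* averaged 11.65 ± 0.55 in H and 11.43 ± 0.30 in L. *KLF15* averaged 10.30 ± 0.86 in H and 10.22 ± 0.40 in L, and *PPARGC1A*, a coactivator induced by fasting, averaged 7.85 ± 0.59 in H and 7.82 ± 0.33 in L. Of the targets 8 of 15 were above 0 and 7 below, with a median of 0.02. *FKBP5* averaged 8.38 ± 0.80 in H and 7.84 ± 0.99 in L (difference 0.54 ± 0.51), *LPIN1*, a phosphatidate phosphatase and coactivator, averaged 7.52 ± 1.11 in H and 6.99 ± 0.89 in L (difference 0.53 ± 0.57), and *IGFBP1* averaged 10.99 ± 1.90 in H and 10.66 ± 1.0 in L (difference 0.33 ± 0.85).

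Serine dehydratase and the cytosolic phosphoenolpyruvate carboxykinase are known from rodents as enzymes of the hepatocytes around the portal vein. Of 9 listed genes of this zone 5 were measured, *SDS* and *PCK1* included. All 5 differences were above 0, against 37.2% over all genes, with a median of 0.15 and none past the threshold. They include those of *SDS* (1.44) and *PCK1* (0.04, with no stable sign when 1 animal was left out). Among the other 3, *ASS1*, the argininosuccinate synthase, averaged 13.94 ± 0.38 in H and 13.87 ± 0.16 in L, *ARG1* averaged 13.93 ± 0.30 in H and 13.77 ± 0.24 in L, and *CPS1* averaged 14.39 ± 0.21 in H and 14.24 ± 0.13 in L. Of 9 listed genes of the zone around the central vein 6 were measured, with 3 differences above 0, 3 below and a median of 0.01. The differences of these 6 genes ran from −0.70 for *RHBG*, an ammonium transporter (3.84 ± 0.77 in H and 4.54 ± 1.11 in L), to 1.45 for *CYP7A1*, which starts the making of bile acids from cholesterol. *CYP7A1* averaged 6.10 ± 2.80 in H and 4.65 ± 3.03 in L, with an SD of 2.85 over the 10 animals and a 95% interval of the difference from −2.16 to 5.06. The H mean of *RHBG* was at the array medians (3.78 to 3.85), and the L mean of *CYP7A1* was also low on the scale. The lower end of the scale therefore limits both differences. *GLUL*, the glutamine synthetase of that zone, averaged 8.29 ± 0.43 in H and 8.43 ± 0.51 in L. The part of liver zones in the spread of *SDS* was not tested.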

How the data were processed

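The authors processed the arrays with GCOS software and the GCRMA method, which corrects each probe for background, and deposited 1 log2 value for each of 24123 probe sets in each of 10 animals. GCOS, GCRMA and RMA are named in the notes of the submitters. Versions of these tools and a genome build for the array values are not given in the sources used here, so no coordinates are given. The 10 columns were matched to animals by their labels. A total of 124 control probe sets were left out. In the annotation of the platform 10069 of the other 23999 carried a single gene symbol, 198 had several and 13732 had none, and symbols were updated through a RefSeq table (9961 matched). Filtering dim probe sets at a mean of 4 left 11756 probe sets and 4730 genes.

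The test of H against L was limma's moderated two-sided test (limma 3.58.1, R 4.3.3) without covariates, adjusted by Benjamini-Hochberg over all genes, tested on simulated data, beside an exact permutation test of each gene. Correlations used permutation tests with 100000 resamples, or full enumeration below 10 animals, adjusted within each family. The software was Python 3.11.15, scipy 1.17.1, numpy 2.4.6 and pandas 2.3.3. Figures were drawn with matplotlib 3.10.9. From each list the genes past the threshold were to be named or, as none passed, the 2 with the largest difference and the 2 with the largest SD; for genes in the top 5% by SD, the 5 most alike and the 3 most opposite. The genes and lists were chosen with earlier results of these data known. Alternatives were other filters, normalizations, probe set rules, priors and weights, a covariate for RNA quality, a replicate block and leaving out each animal. The groups shared some full sibs and some sibs of the same mother, by the methods of the study, and kinship was not modelled. Array data give no depth, and the number of arrays limits the precision.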

Additional observations from a re-analysis of the deposited data

Results flagged for a closer look

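An animal was singled out in its group of 5 where its distance from the next animal took more than 0.71 of the whole range (Dixon's test). Chance gives about 1 such animal in 20 groups where genes are not picked for their spread. The 26 genes looked at were the 7 genes and the genes named from the lists for a large difference or SD. The latter were picked in these data, so that rate cannot be set against the share found. Of 52 groups looked at, 2 for each of 26 genes, 3 (5.77%) held such an animal, 1 of them among the 14 groups of the 7 genes of gluconeogenesis and amino acid catabolism. *SDS* read 3.58 in H5, against 8.58 to 9.49 in the other H animals (gap over range 0.847). *MUT* read 12.6 in H1, against 11.51 to 11.80 in the other H animals (0.739). *GK* read 8.19 in L1, against 8.47 to 8.56 in the other L animals (0.75).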

How the results depend on the processing

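No gene passed limma's adjusted threshold under any setting (0 of the genes tested), and the genes with an unadjusted p under 0.05 numbered 125, 90 without L4 and 281 without L2. The signs of *SDS*, *TAT*, *HPD*, *FBP1* and *PC* held under all settings; leaving out 1 animal gave 0.77 to 2.50 for *SDS*, 0.29 to 0.72 for *TAT*, 0.09 to 0.38 for *HPD*, 0.03 to 0.13 for *FBP1* and −0.27 to −0.09 for *PC*. The sign of *PCK1* turned to −0.12 without H2, −0.07 without H3, −0.02 without L2 and −0.04 without L3, and its highest value was 0.28. That of *GOT1* turned to −0.035 with array weights, −0.05 without H1, −0.12 without H3, −0.08 without L3 and −0.03 without L4, and its highest value was 0.17; the cause was not tested. Of the relations of *SDS*, 1 passed by rho (*ARG1*, 0.88) and 0 by r. Of the 189 relations, leaving out 1 animal gave 0 to 2 calls: *PCK1* with *KLF15* without H1, H5 or L2, *FBP1* with *ASNS* without H1, *TAT* with *CREM* without H5, *PC* with *CREM* without H2, *HPD* with *CPS1* without H3 and *FBP1* with *FKBP5* without L1. *ASNS* lay near the dark end of the scale, with 4.21 in each of H3, L2, L3 and L4 and its highest value, 4.65, in L5. Whether the animal numbers pair the animals is not given in the labels. The correlation of same-numbered animals (−0.237 to 0.281, above 0.1 for 1 of 5) cannot settle it. With the replicate block *SDS* differed by 1.44 (limma's adjusted p = 0.994), 0 genes passed, and 140 had an unadjusted p under 0.05.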
